A study of Mus musculus with 8 samples.

Results

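Proteasome genes were followed in B cells on their way into germinal centers, after help from T cells with both copies or a single intact copy of Bcl6. The proteasome is the protease of cytosol and nucleus that degrades proteins tagged with ubiquitin. Its barrel-shaped core is built of rings of alpha and beta subunits, and the beta rings carry the cutting sites inside. A regulatory cap, with a ring of ATPases and a set of non-ATPase subunits, binds ubiquitin chains, removes them and feeds the unfolded substrate into the core. Lymphocytes also make an immunoproteasome, in which the catalytic beta subunits are exchanged for interferon-inducible ones, and smaller activators can take the place of the cap. Cells that divide or secrete need this machinery for cyclin turnover and for the removal of misfolded secretory protein.

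Genes were taken by their name, as every row of the count table called Psma, Psmb, Psmc, Psmd, Psme, Psmf or Psmg followed by a number, leaving out the immunoproteasome subunits Psmb8, Psmb9 and Psmb10. This gave 44 of the 24259 genes in the table, of which 43 passed the filter on low counts together with 12744 genes in all. They comprised 8 alpha subunits, 7 beta subunits, 6 ATPases, 11 non-ATPase cap subunits, 3 chaperones of cap base assembly (Psmd5, Psmd9 and Psmd10), 4 activators (Psme1 to Psme4), the regulator Psmf1 and 4 chaperones of core assembly (Psmg1 to Psmg4). The member that did not pass was Psma8, the alternative alpha subunit known from the testis, with 14, 0, 0 and 2 counts in the HET libraries and 21, 0, 0 and 0 counts in the WT libraries.

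The B cells bound the hapten NP, were IgD-low and B220-positive, and were sorted from lymph nodes of C57BL/6 mice on day 3 after immunization with NP-OVA given with LPS in alum. The recipients were CD45.1 mice without SAP, whose own T cells cannot sustain germinal centers, and in both groups the help came from transferred OT-II T cells, which recognise ovalbumin and carried Cd4-cre, a transgene expressed in T cells. In HET these T cells also had 1 floxed Bcl6 allele, and in WT they had none, so the B cells that were sequenced were not targeted themselves. Each group comprised 4 libraries of about 200 cells, and all 4 were sorted from a single pool of recipients, so p-values below reflect how repeat sorts and their libraries varied, and an effect of the pool cannot be told apart from one of the group. The age of the mice was not given in the sources used here.

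Libraries held between 6652386 and 12559189 counts. The B cell label was checked on defining markers in TMM-scaled counts per 1000000 (CPM). Cd79a, a signalling chain of the B cell receptor, was at 3209 to 3796 CPM in HET and 3755 to 3999 CPM in WT, and Pax5, the B cell identity factor, at 192 to 250 CPM and 212 to 315 CPM. Of 8 B cell markers 1 had a log2 fold change above 0, and Cd79b, Ms4a1, Cd22 and Cd74 were lower in HET without overlap, with 10785 to 11680 CPM of Cd74 in HET and 12618 to 15157 CPM in WT (background 2.62% of all genes). Sums of 12 T cell markers reached 344 to 642 CPM in HET and 188 to 482 CPM in WT, and sums of 10 myeloid markers 293 to 524 CPM and 273 to 737 CPM; none of these genes was at 0 in all libraries, although Cd4 did not exceed 0.758 CPM in any. All 11 T cell markers that passed the filter had a log2 fold change above 0, against 49.9% of all genes, and 3 of 7 myeloid markers did. The part of these markers in the proteasome values was not tested. HET replicate 1 stood apart by its sum of 8 antibody-secreting cell markers, at 2159 CPM. This sum was 301 to 578 CPM in HET replicates 2 to 4 and 251 to 564 CPM in WT. Jchain alone held 1576 CPM in HET replicate 1. Mzb1, Irf4 and Derl3 were also highest in that library, while Prdm1, Xbp1, Sdc1 and Tnfrsf17 were highest in another.

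In these B cells the proteasome was expressed throughout. Members together took 0.702% ± 0.0555 of all HET counts and 0.638% ± 0.0415 of all WT counts (SD, n = 4 each). In bulk samples of this kind, fewer cells of a type and less RNA per cell cannot be told apart. Levels of different genes were compared per length, as CPM per kilobase of the principal transcript, averaged over the 8 libraries, because the deposited TPM values turned out not to serve this purpose. The length that they imply followed the span of the gene with its introns (Spearman correlation 0.954 across 9214 genes, which are not independent) more closely than the length of its exons (0.605). As an example, the catalytic subunits Psmb6 and Psmb7 had 195 and 135 CPM, but 452 and 9.19 TPM.

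Per kilobase, core subunits and the interferon-inducible activators were highest. The median level was 203 CPM per kilobase in the beta ring and 145 in the alpha ring, 102 among the ATPases and 68.2 among the non-ATPase cap subunits. Within the alpha ring, levels ran from 98.1 CPM per kilobase for Psma2 to 356 for Psma7. Within the beta ring they ran from 104 for Psmb5 to 325 for Psmb3, so that the rings overlapped in level. Psmb5, Psmb6 and Psmb7 share their places in the core with the immunoproteasome subunits, and Psmb8, the counterpart of Psmb5, was at 365 CPM per kilobase. ATPases spanned 45.8 (Psmc6) to 117 (Psmc5), and non-ATPase subunits 32.5 for the large scaffold Psmd1 to 144 for Psmd8.

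Levels of the chaperones and of Psmf1 were mostly lower. The base chaperones lay between 14.3 CPM per kilobase for Psmd5 and 26.7 for Psmd10, the core chaperones between 25.9 for Psmg3 and 97.02 for Psmg4, and Psmf1, which binds the core and inhibits it in vitro, at 19.3. The activators spanned a wide range. Psme1 and Psme2, the partners of the interferon-inducible ring that opens the core for antigen processing, stood at 315 and 280 CPM per kilobase, the nuclear activator Psme3 at 51.7, and Psme4, the very large nuclear activator linked to the degradation of acetylated histones, at 4.61, the lowest level of all 43. With all annotated exons taken as the length, these levels were lower, except in Psmb5 and Psmg4, whose length is the same either way, and the order of the 8 role medians stayed the same but for the base chaperones and Psmf1, which changed places.

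To ask whether the proteasome differed with the Bcl6 dose of the helper T cells, all genes were compared between HET and WT. By edgeR's quasi-likelihood test, 0 of 43 members reached an adjusted p under 0.05 (lowest adjusted p = 0.506), where 0.0235% of all genes tested did. DESeq2 also called 0 of 43 (lowest adjusted p = 0.0757), where it called 0.581% of all genes. Fold changes were small and leaned one way. The log2 fold change of HET over WT was above 0 for 36 of the 43 members, against 49.9% of all genes tested, and its median was 0.14, against -0.0014 over all genes. The median was 0.08 without HET replicate 4, against 0.0055 over all genes. By limma-trend on TPM it was 0.06 and 0.07, against -0.033 and -0.046 over all genes. At an unadjusted p under 0.05, 8 members were higher in HET (background 3.34%) and 1 was lower (background 3.88%), and the number higher was 13 without HET replicate 1, 4 without HET replicate 4, 5 without HET replicate 3 or WT replicate 3, and 1 by limma-trend on TPM. The groups did not overlap for 4 members higher in HET (background 1.99%) and 1 lower (background 2.62%). Because the genes share libraries and vary together, these counts are a description and not a test of the proteasome as a whole.

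**Figure D1:**
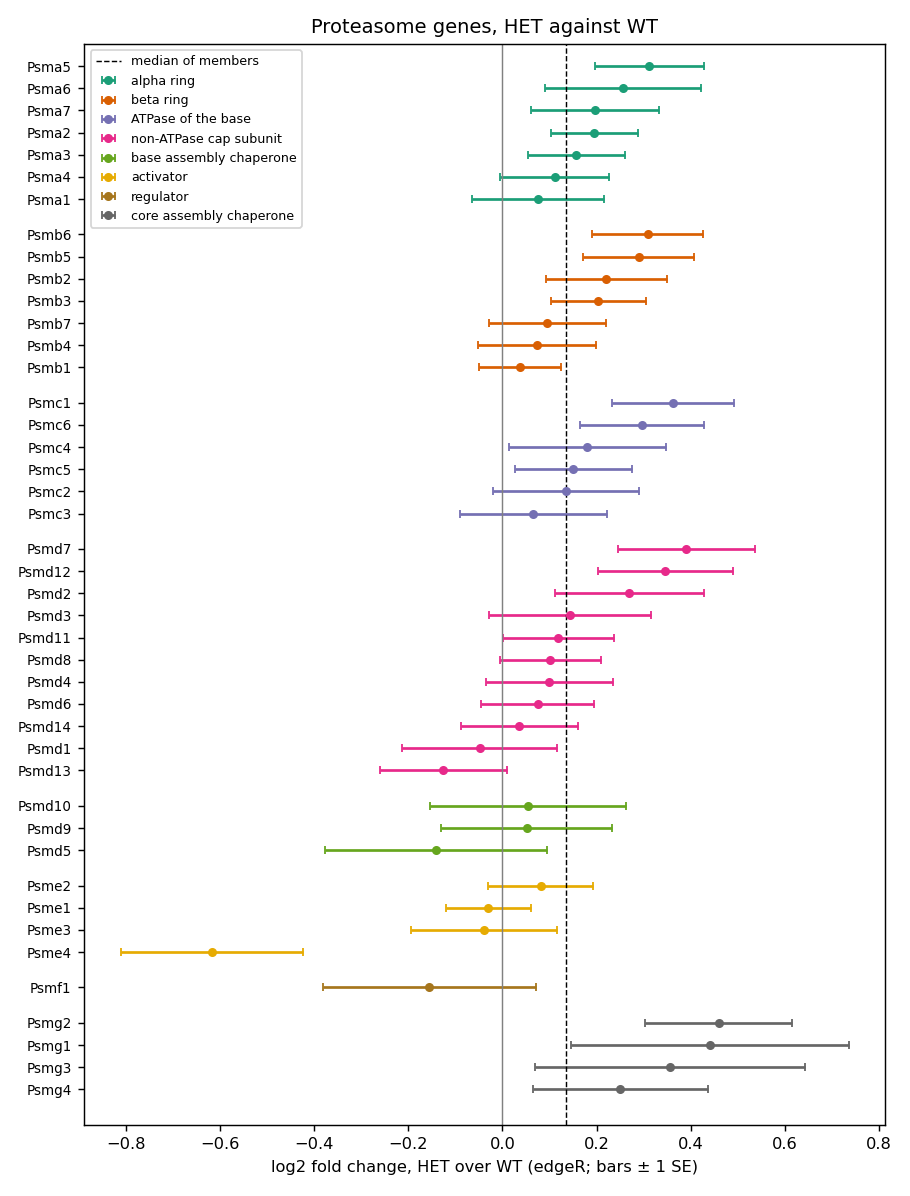
Log2 fold change of HET over WT (horizontal axis) for the 43 tested proteasome genes, grouped and coloured by role; points are edgeR estimates, bars ± 1 SE, and the dashed line the median of 0.14. All 7 alpha, 7 beta and 6 ATPase genes lie right of 0, and Psme4 lies farthest left at -0.62.

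Roles are given by their counts and medians. All 14 core subunits and all 6 ATPases had a log2 fold change above 0, with a median of 0.20 in the alpha ring, 0.20 in the beta ring and 0.17 among the ATPases. Of the non-ATPase cap subunits 9 of 11 were above 0 (median 0.10), the exceptions being Psmd1 (-0.05) and the lid subunit Psmd13 (-0.13). The 4 core assembly chaperones were all above 0, with the largest median of any role, 0.40. Of the 4 activators 1 was above 0 (median -0.03), of the 3 base chaperones 2 (median 0.05), and Psmf1 was at -0.16. Differences between roles were not tested.

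Members often had their extreme values in the same libraries. For 34 of the 43 members the highest value was in a HET library, 16 times in HET replicate 4 and 11 times in HET replicate 3, and for 33 the lowest was in a WT library, 21 times in WT replicate 3. HET replicate 1 behaved unlike its group, with the highest value of 1 member and the lowest of 5. The same counts over all genes tested are not given here, so these libraries may be extreme for genes in general. The mean log2 CPM over the 43 members was 6.91, 7.03, 7.11 and 7.18 in HET replicates 1 to 4 and 6.97, 7.02, 6.76 and 6.93 in WT replicates 1 to 4. Thus HET replicates 2, 3 and 4 were above every WT library, and HET replicate 1 was above WT replicate 3 alone. The HET mean was 7.06 ± 0.11 and the WT mean 6.92 ± 0.11 (SD, n = 4 each), a difference of 0.14 that was little larger than the SD within a group. Leaving out HET replicate 1 made this difference 0.19, and leaving out WT replicate 3 made it 0.09, the same as on log2 TPM.

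**Figure D2:**
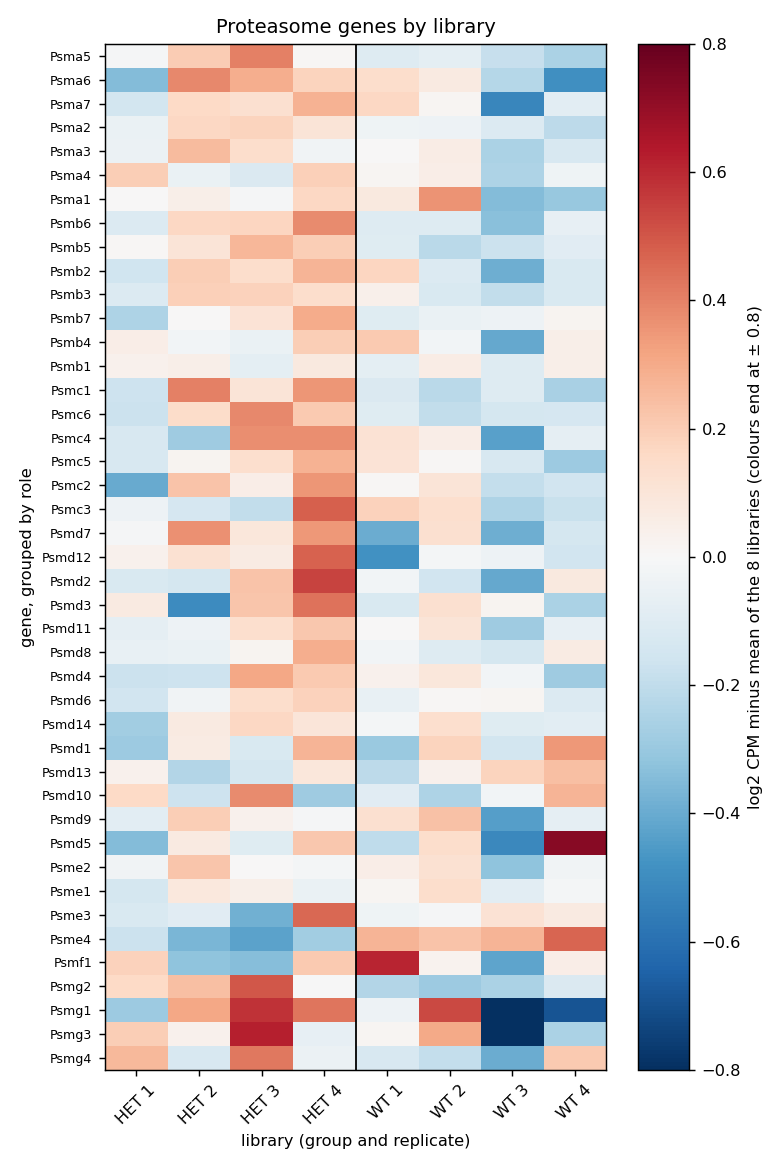
Log2 CPM of each of the 43 tested proteasome genes (rows, grouped by role) in each library (columns), minus the gene's mean over the 8 libraries; red is above and blue below that mean. WT replicate 3 is blue in most rows, holding the lowest value of 21 genes, and HET replicate 4 red in most, holding the highest of 16.

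Cell division markers were not the same in the libraries either. The sum of 12 such genes (Mki67, Top2a and others) was 857, 872, 1086 and 1161 CPM in HET replicates 1 to 4 and 872, 683, 662 and 427 CPM in WT replicates 1 to 4, with 11 of the 12 above 0 in log2 fold change. HET replicates 3 and 4 were thus highest both for these markers and for the proteasome score, while WT replicate 4 was lowest for the markers and WT replicate 3 for the score. Sums of 6 genes of IgD-bearing naive follicular B cells were 3672 to 4555 CPM in HET and 4780 to 4915 CPM in WT, without overlap. Their part in the proteasome values was not tested.

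**Figure D3:**
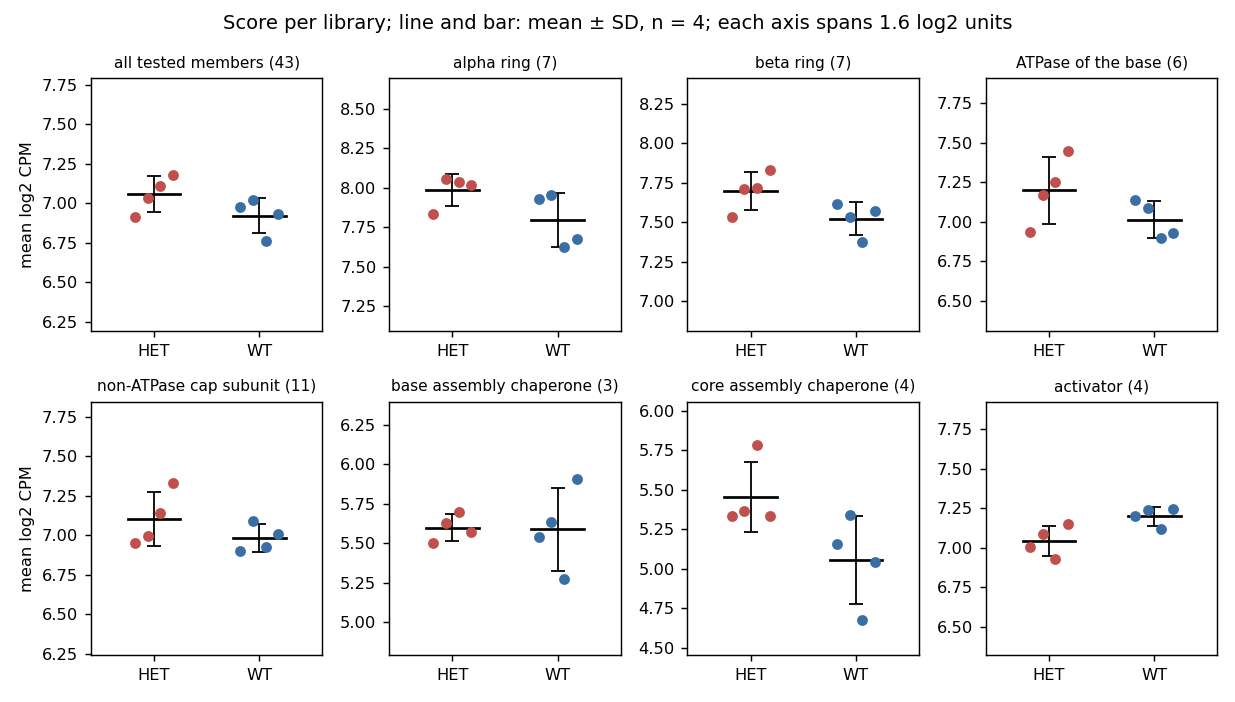
Mean log2 CPM per library (vertical axis) of all tested members and of 7 roles, with the number of genes in brackets; points are libraries in order of replicate, lines and bars the mean ± SD of 4. The core and ATPase scores sit higher in HET with 1 low library, HET replicate 1, and the activator score, which includes Psme4, has a lower mean in HET.

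The score per role repeated this. In the alpha ring the HET mean was 7.99 ± 0.10 and the WT mean 7.80 ± 0.17 (SD, n = 4 each), and in the beta ring 7.70 ± 0.12 and 7.52 ± 0.10 (SD, n = 4 each). The ATPases were at 7.20 ± 0.21 and 7.01 ± 0.12, the non-ATPase subunits at 7.10 ± 0.17 and 6.98 ± 0.09, and the core chaperones at 5.45 ± 0.22 and 5.05 ± 0.28 (SD, n = 4 each). The activator score was 7.04 ± 0.09 in HET and 7.20 ± 0.06 in WT (SD, n = 4 each), where Psme4 had a log2 fold change of -0.62 and the other 3 genes lay between -0.04 and 0.08, and base chaperones stood at 5.60 ± 0.08 and 5.59 ± 0.26. HET and WT overlapped in every role.

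Among the catalytic subunits, Psmb5 (chr14:54614119-54618022 on GRCm38), which carries the chymotrypsin-like site, was at 93.7, 99.7, 111 and 107 CPM in the HET libraries and 86.9, 80.2, 82.3 and 87.1 CPM in the WT libraries. All HET libraries lay above all WT libraries. The estimated log2 fold change was 0.29 ± 0.12 (SE, edgeR unadjusted p = 0.0278, adjusted p = 0.617). Psmb6 (chr11:70525367-70527858), which carries the caspase-like site, was at 179, 217, 218 and 251 CPM in HET and 180, 180, 153 and 184 CPM in WT. HET replicate 1 fell within the WT range and the other HET libraries above it, and the estimated log2 fold change was 0.31 ± 0.12 (SE, edgeR unadjusted p = 0.0207, adjusted p = 0.602). Psmb7 (chr2:38588036-38644087), with the trypsin-like site, was at 113, 135, 145 and 166 CPM in HET and 126, 130, 131 and 136 CPM in WT. HET held both its lowest and its highest value, and the estimated log2 fold change was 0.09 ± 0.12 (SE, edgeR adjusted p = 0.913). Its exons overlap those of Nek6 on the opposite strand, and without a stated strand setting reads from the overlap cannot be assigned.

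In the alpha ring, whose subunits form the gate of the core, Psma5 had the lowest p. It was at 167, 194, 223 and 170 CPM in HET and 157, 160, 148 and 142 CPM in WT, without overlap, and the estimated log2 fold change was 0.31 ± 0.12 (SE, edgeR unadjusted p = 0.0177, adjusted p = 0.599). The processed copy Psma5-ps held 0.626% to 2.02% as many counts as Psma5, so some reads of Psma5 could have been assigned to the copy. The remaining alpha subunits ranged in log2 fold change from 0.08 (Psma1) to 0.26 (Psma6), and the remaining beta subunits, which form the structural part of the ring, from 0.04 (Psmb1) to 0.22 (Psmb2).

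**Figure D4:**
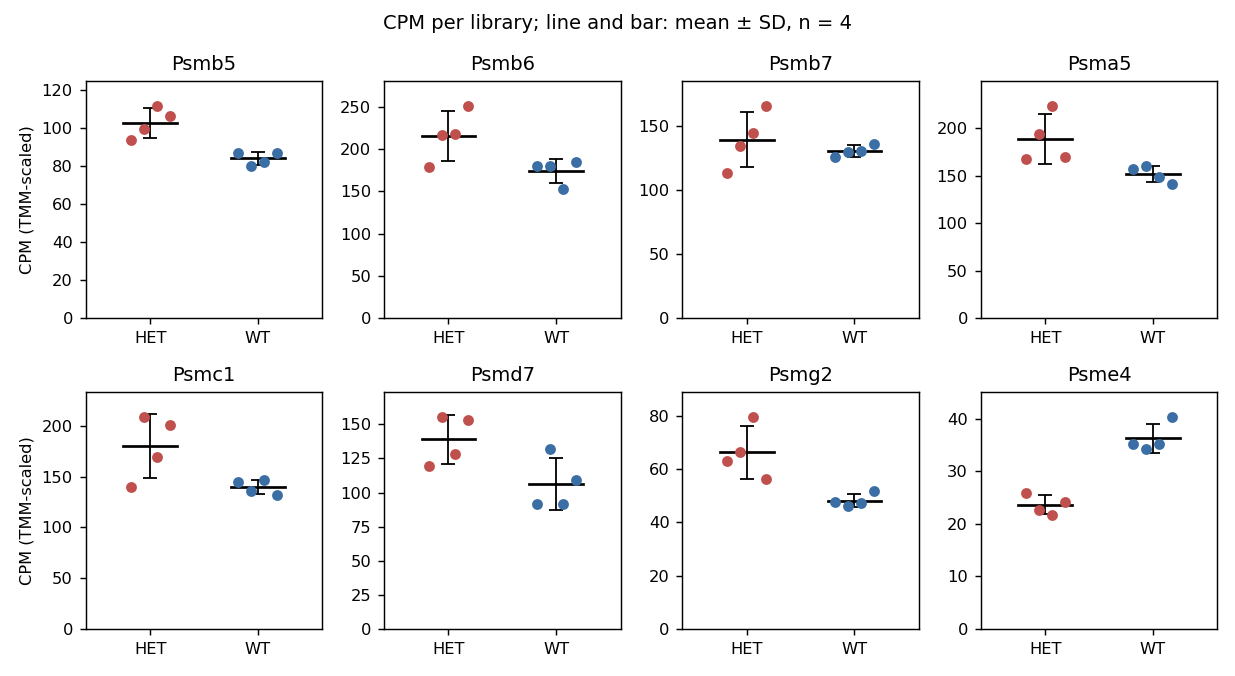
CPM per library (vertical axis, from 0) of 8 proteasome genes in HET and WT; points are libraries in order of replicate, lines and bars the mean ± SD of 4. Psmb5, Psma5 and Psmg2 are higher in HET and Psme4 is lower, each without overlap, while Psmb6, Psmb7, Psmc1 and Psmd7 overlap.

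In the cap, Psmc1, an ATPase of the unfolding ring, was at 140, 208, 169 and 201 CPM in HET and 145, 136, 147 and 131 CPM in WT. HET replicate 1 lay among the WT libraries and the other HET libraries above all of them (log2 fold change 0.36, SE 0.13, edgeR unadjusted p = 0.0145, adjusted p = 0.579). Psmd7, which holds the deubiquitinase Psmd14 in the lid, was at 120, 155, 128 and 153 CPM in HET and 91.4, 132, 91.6 and 109 CPM in WT. WT replicate 2 exceeded HET replicates 1 and 3, and the estimated log2 fold change was 0.39 ± 0.15 (SE, edgeR unadjusted p = 0.0176, adjusted p = 0.599). Psmd14 itself, which removes the ubiquitin chain, had a log2 fold change of 0.04 (SE 0.12), and Psmd4, a ubiquitin receptor, 0.10 (SE 0.13). The ATPase Psmc6 and the lid subunit Psmd12 were the other cap genes with an unadjusted p under 0.05, with log2 fold changes of 0.30 and 0.35 (edgeR unadjusted p = 0.0421 and 0.0308). The groups did not overlap for Psmd12, which was at 109 to 148 CPM in HET and 75.9 to 105 CPM in WT, and overlapped for Psmc6, at 89.9 to 132 CPM and 88.3 to 94.7 CPM.

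Psmd13 was at 104, 86.3, 92.0 and 108 CPM in HET and 87.9, 104, 115 and 120 CPM in WT. The ranges overlapped (log2 fold change -0.13, SE 0.13, edgeR adjusted p = 0.889), and exons of Psmd13 overlap those of Sirt3 on the opposite strand. Psmd5, which holds back ATPases until the base is assembled, was at 47.9, 64.3, 57.1 and 71.0 CPM in HET and 53.0, 67.4, 42.8 and 101 CPM in WT. The high value was that of WT replicate 4, and the log2 fold change of -0.14 (SE 0.24, edgeR adjusted p = 0.937) was 0.14 without that library.

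Core assembly begins with the Psmg chaperones, which bring the alpha subunits together in pairs of proteins, Psmg1 with Psmg2 and Psmg3 with Psmg4. Psmg2 was at 62.8, 66.5, 79.4 and 56.1 CPM in HET and 47.7, 45.9, 47.1 and 51.8 CPM in WT. All HET libraries were above all WT libraries (log2 fold change 0.46, SE 0.16, edgeR unadjusted p = 0.0111, adjusted p = 0.569). The other core chaperones had log2 fold changes of 0.44 (Psmg1), 0.36 (Psmg3) and 0.25 (Psmg4), with larger errors (SE 0.19 to 0.30). WT replicate 3 was lowest for these genes, with 19.4 CPM of Psmg1 against 28.1 to 51.4 CPM in HET.

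Psme4 (chr11:30771726-30880361) was the member with the lowest p, and of the 7 members with a log2 fold change below 0 it was the farthest from 0. It was at 25.9, 22.7, 21.7 and 24.1 CPM in HET and 35.3, 34.2, 35.2 and 40.3 CPM in WT. Every HET library was below every WT library, and the estimated log2 fold change was -0.62 ± 0.19 (SE, edgeR unadjusted p = 0.00668, adjusted p = 0.506). It remained between -0.66 and -0.53 over the 15 alternative settings. The other activators differed by less than the spread within a group. Psme1 was at 317, 372, 361 and 337 CPM in HET and 353, 386, 330 and 346 CPM in WT (log2 fold change -0.03, SE 0.09, edgeR adjusted p = 0.970). Its exons overlap those of Emc9 on the opposite strand.

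Psme2 was at 263, 313, 268 and 265 CPM in HET and 279, 291, 215 and 264 CPM in WT, with overlap (log2 fold change 0.08, SE 0.11, edgeR adjusted p = 0.918). The near-identical copy Psme2b held 6.36% to 11.0% as many counts as Psme2, so reads could have been split between them. Psme3 was at 125, 128, 104 and 187 CPM in HET and 133, 135, 148 and 143 CPM in WT. HET replicate 4 was highest and the other HET libraries were below all of WT (log2 fold change -0.04, SE 0.16, edgeR adjusted p = 0.977). Psmf1 was at 55.6, 39.1, 38.5 and 56.6 CPM in HET and 74.5, 49.8, 36.5 and 50.6 CPM in WT (log2 fold change -0.16, SE 0.23, edgeR adjusted p = 0.925), and WT replicate 1 supplied the high value.

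Each constitutive catalytic subunit has an immunoproteasome counterpart that takes its place, and their ratio within a library does not depend on library scaling. Psmb8 averaged 592 ± 52.7 CPM in HET and 595 ± 48.0 CPM in WT, Psmb9 at 234 ± 24.2 and 201 ± 17.4 CPM, and Psmb10 at 140 ± 29.9 and 137 ± 19.2 CPM (SD, n = 4 each). Per kilobase, Psmb8 exceeded Psmb5 by 3.26, 3.48, 3.20 and 2.80 times in the HET libraries and 4.18, 4.16, 3.82 and 3.48 times in the WT libraries. Only HET replicate 2 and WT replicate 4 were out of order, by less than the rounding of these values. On the log2 scale the ratio differed by -0.30 between HET and WT (two-sided exact permutation p = 0.0571, adjusted p = 0.171 over the 3 ratios, smallest possible p 0.0286). The ratio of Psmb9 to Psmb6 per kilobase averaged 0.650 ± 0.114 in HET and 0.683 ± 0.0725 in WT (SD, n = 4 each, exact permutation p = 0.571, adjusted p = 0.857). That of Psmb10 to Psmb7 was 0.923 ± 0.337 and 0.923 ± 0.114 (exact permutation p = 0.857, adjusted p = 0.857), and its HET spread came from HET replicate 1, at 1.41. None of the 3 ratios passed the threshold of 0.05. After adjustment over the 3 ratios, a single ratio at the smallest possible p could not have passed it alone. The result therefore does not show that the ratios were the same.

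**Figure D5:**
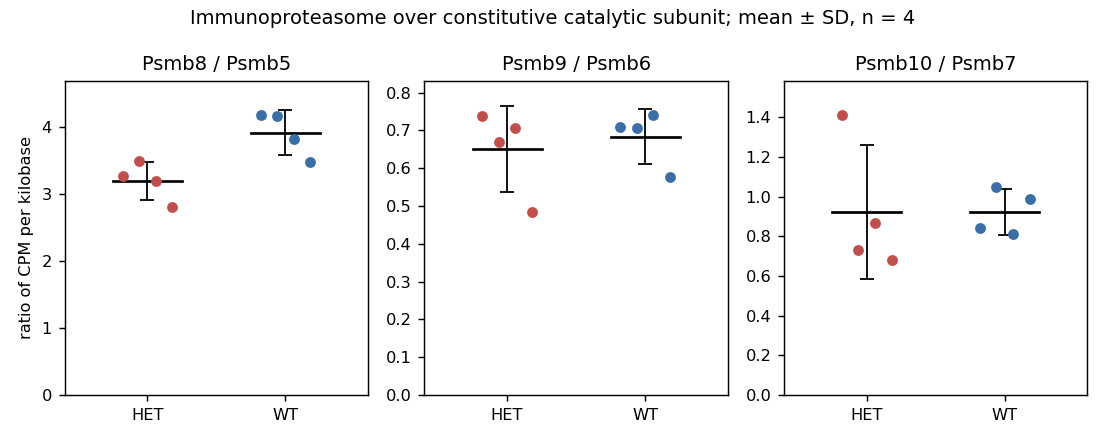
Ratio of CPM per kilobase (vertical axis, from 0) of each immunoproteasome subunit to the constitutive subunit that it replaces; points are libraries in order of replicate, lines and bars the mean ± SD of 4. Psmb8 exceeds Psmb5 in every library, by 2.80 to 4.18 times, and the HET mean is lower, with 1 HET library just above the lowest WT library, and the other ratios, around or below 1, overlap more widely.

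Other genes that act with the proteasome were examined as a list of 33, of which 32 were in the table and tested. None passed an adjusted p of 0.05 in edgeR (background 0.0235%) or DESeq2 (background 0.581%). The log2 fold change was above 0 for 16, against 49.9% of all genes, and below 0 for 16, with a median of -0.00018. At an unadjusted p under 0.05, 2 were higher (background 3.34%) and 2 lower in HET (background 3.88%). The groups did not overlap for 2, both higher in HET (background 1.99%). Uchl5, a deubiquitinase of the cap, was at 55.0, 92.7, 67.4 and 60.4 CPM in HET and 27.7, 49.8, 48.8 and 38.3 CPM in WT, without overlap (log2 fold change 0.74, SE 0.22, edgeR adjusted p = 0.481). Txnl1, a thioredoxin-like protein bound to the cap, had a log2 fold change of 0.35 (SE 0.15, edgeR adjusted p = 0.625). Pomp, the chaperone of beta ring assembly, was at 165, 184, 167 and 172 CPM in HET and 150, 154, 131 and 156 CPM in WT. It did not overlap between the groups, with an unadjusted p of 0.0562 (log2 fold change 0.22, SE 0.10, edgeR).

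Among particle and assembly genes outside the name rule, 8 of 9 had a log2 fold change above 0, against 49.9% of all genes. Of the shuttle factors and VCP partners 3 of 9 did, and of the genes of transcriptional control 0 of 4. Differences between these groups of genes were not tested. Nfe2l1 encodes the transcription factor that raises proteasome gene expression when proteasome capacity is short. It was at 23.6, 25.8, 19.5 and 18.3 CPM in HET and 35, 34.8, 21.5 and 55.0 CPM in WT. Only WT replicate 3 lay within the HET range (log2 fold change -0.75, SE 0.27, edgeR unadjusted p = 0.0166, adjusted p = 0.587).

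The factor encoded by Nfe2l1 binds antioxidant response elements, and the promoters of members were searched for the core of this element, TGACNNNGC, for the CCAAT box, CCAAT, and for the GC box, GGGCGG, on both strands. RefSeq promoter windows of 300 bases (250 before and 50 after the start, GRCm38.p6) were found for 36 of the 44 members, 39 windows in all. The entries without a window were Psma8, Psmb1, Psmb2, Psmb7, Psmc3, Psmd3, Psmd7 and Psmg2. The antioxidant element core was present in 15.4% of the member windows, against 12.4% of all 32851 windows, the CCAAT box in 30.8% against 37.4%, and the GC box in 59.0% against 35.7%. The 6 genes with the antioxidant element core were Psmb5, Psmb6, Psmc6, Psmd12, Psmd9 and Psme4. They included 4 of the 6 members with a window that were higher in HET at an unadjusted p under 0.05, the 1 that was lower, and 1 of the 29 other tested members with a window. This grouping was made after the values were seen, and the share with a match among all genes at such a p is not given here. A match of letters does not show a site in use, and control of the members by Nfe2l1 was not tested. The match in Psmd9 overlapped another of the motifs and the others did not.

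The promoters of the 5 members that had both a match and an unadjusted p under 0.05 are given so that the matches can be seen in place. They run 5′ to 3′ on the strand of the gene, with the antioxidant element core in capitals. All but that of Psme4 run up to the first annotated start. In Psmc6, Psmd12 and Psme4 the match is on the reverse strand. In Psme4 it lies at the RefSeq start, and 30 bases around it are shown. This stretch falls inside the span of the gene given above (chr11:30771726-30880361).
Psmb5 (chr14:54618023-54618245, minus strand): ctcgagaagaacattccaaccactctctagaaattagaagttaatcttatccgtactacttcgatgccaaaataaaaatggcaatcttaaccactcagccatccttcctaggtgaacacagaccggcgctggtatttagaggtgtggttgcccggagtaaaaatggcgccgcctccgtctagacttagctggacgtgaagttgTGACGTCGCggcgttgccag
Psmb6 (chr11:70525107-70525356, plus strand): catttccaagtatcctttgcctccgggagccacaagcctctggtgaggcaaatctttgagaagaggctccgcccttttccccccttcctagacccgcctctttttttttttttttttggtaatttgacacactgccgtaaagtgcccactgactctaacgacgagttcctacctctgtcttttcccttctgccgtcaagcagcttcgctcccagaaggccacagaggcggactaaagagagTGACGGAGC
Psmc6 (chr14:45329574-45329787, plus strand): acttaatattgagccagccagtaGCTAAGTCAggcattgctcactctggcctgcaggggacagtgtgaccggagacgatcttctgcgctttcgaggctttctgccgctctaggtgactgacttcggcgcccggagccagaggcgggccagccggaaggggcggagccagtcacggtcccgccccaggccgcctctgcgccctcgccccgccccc
Psmd12 (chr11:107479278-107479483, plus strand): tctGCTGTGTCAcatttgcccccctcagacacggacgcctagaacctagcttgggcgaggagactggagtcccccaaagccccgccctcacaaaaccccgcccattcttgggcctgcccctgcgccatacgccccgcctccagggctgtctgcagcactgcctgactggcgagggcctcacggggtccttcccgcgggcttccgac
Psme4 (chr11:30771755-30771784, plus strand): cggcgctgcggctGCAGCGTCAccagaaga

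In the promoter of Psmb5 the match began 47 bases before the RefSeq start and in that of Psmb6 9 bases before it. In Psmc6 and Psmd12 it began 227 and 247 bases before the start, and in Psme4 7 bases before it.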

How the data were processed

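RNA was measured in 4 HET and 4 WT libraries, each of about 200 sorted B cells. Per the study's methods and the labels, SMART-Seq2 libraries were aligned to GRCm38 with HISAT2 2.2.1 and counted per gene with HTSeq-count. Which annotation was used, whether counting was stranded and how reads with several alignments were treated were not given in the sources used here. The authors deposited raw read counts per gene symbol and, in a second table, TPM values. The TPM values that the authors deposited sum to 1000000 per library, and their ratio to the counts was the same in every library within 0.1% for 100% of the 9146 genes checked, so they are the counts divided by 1 length per gene.

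The test was run with edgeR 4.0.16 under R 4.3.3 (filterByExpr, TMM scaling, robust quasi-likelihood F-test with group as the only factor, Benjamini-Hochberg adjustment over all 12744 genes tested, threshold 0.05). The study used DESeq2, which was an alternative here (version 1.42.0). SE was derived from the fold change and its F statistic. CPM values are TMM-scaled, and scores are means of log2 CPM with a prior count of 2. Ratios were compared by two-sided exact permutation over 70 arrangements of the libraries. Settings were tested on simulated data whose changes were larger than that of any member here. That test does not show how well changes as small as those of the members are found. Gene positions and exon lengths came from GENCODE M21 (GRCm38) and promoters from RefSeq (GRCm38.p6). Levels between genes were planned on TPM and moved to CPM per kilobase of the principal transcript once the lengths behind the TPM were seen.

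Members, lists and tests were chosen with earlier results of these data known. Values per library are given for the catalytic subunits, the activators, Psmf1 and the 5 members with the lowest p in each direction. Levels are given for the extremes of each role. Outside the members, values per library are given for Nfe2l1, Pomp and Uchl5. The immunoproteasome subunits are given by group means and ratios, and Txnl1 by its log2 fold change. Uchl5 and Txnl1 were named for an unadjusted p under 0.05. Other genes named were chosen after their values were seen. A partner gene and a B cell marker are not reported here. The fits tried in place of the reported one used RLE size factors, DESeq2, a filter at a mean of 50 counts, all genes unfiltered, limma-trend (limma 3.58.1) on log2(TPM + 1) and log2(TPM + 0.1), the replicate number as a block, and leaving out each library. Intervals and errors cover these libraries only, since the 4 libraries of a group were sorted from a single pool of recipients. SMART-Seq2 reads also carry no molecular identifiers.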

Additional observations from a re-analysis of the deposited data

Results flagged for a closer look

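Libraries are listed here whose value was separated from the remaining 3 of the group by a gap that filled most of the range (Dixon's criterion), and the gap is given as a share of that range. Of 128 groups of 4 values, 5 held such a library, and chance alone marks about 1 in 20. Psmb6 was lowest in WT replicate 3, at 153 CPM where the rest of WT had 180 to 184 CPM (gap 0.846). Psme2 was highest in HET replicate 2, at 313 CPM against 263 to 268 CPM (gap 0.886), and Psme4 was highest in WT replicate 4, at 40.3 CPM against 34.2 to 35.3 CPM (gap 0.832). The alpha ring score was lowest in HET replicate 1, at 7.84 against 8.02 to 8.06 in the rest of HET (gap 0.830). This library also held 2159 CPM of antibody-secreting cell markers, 1576 CPM of them from Jchain alone. The part of these markers in the score was not tested. The core assembly chaperone score was highest in HET replicate 3, at 5.78 against 5.33 to 5.37 (gap 0.922).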

How the results depend on the processing

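No member and no partner gene passed an adjusted p of 0.05 under any of the 15 alternatives, while over all genes edgeR called 3, DESeq2 88, edgeR without a filter 38, edgeR with a mean of at least 50 counts 7, limma-trend 0 (log2(TPM + 1)) and 1 (log2(TPM + 0.1)), and edgeR with the replicate block 0. The number of members higher in HET at an unadjusted p under 0.05, 8 as reported, was 1 and 1 in the limma-trend fits and 4 to 13 when a library was left out (13 without HET replicate 1, 4 without HET replicate 4, 5 without HET replicate 3 or WT replicate 3), and the cause was not tested. The number lower stayed at 1. The median log2 fold change ranged from 0.06 to 0.19 and the score difference from 0.09 to 0.19, and both kept their sign. Over all genes the median ranged from -0.046 to 0.037. With all libraries, the 14 members given by library kept their sign in 98 of 98 fits. When a library was left out, the log2 fold change changed sign for Psme1 (-0.059 to 0.015), Psme3 (-0.23 to 0.071), Psmf1 (-0.29 to 0.053) and Psmd5 (-0.30 to 0.14), and so did the differences in the log2 ratios Psmb9 over Psmb6 (-0.16 to 0.051) and Psmb10 over Psmb7 (-0.28 to 0.072), while Psmb8 over Psmb5 stayed between -0.35 and -0.24. With 4 against 3 libraries the smallest permutation p is 0.0571. Same-numbered libraries did not deviate together (correlations of -0.05 to 0.01 over genes, and 1 of 8 libraries correlated best with its own number), so the numbers do not pair the samples. With the replicate number as a block, 7 members were higher in HET by that criterion and 1 was lower, the median log2 fold change was 0.12, and the 3 ratios had a paired exact sign-flip p of 0.125, 0.25 and 1 (smallest possible 0.125). Leaving out Psme2 and Psma5, an alternative chosen after seeing the data, gave a score difference of 0.13. In Psma8, counts were too few for a comparison.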
